A study of Mus musculus with 5 samples.

Results

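Type IIb myofibres are the fastest and most glycolytic fibres of mouse limb muscle, and the barcodes described here carry the RNA of such fibres. They were chosen from droplet sequencing of tibialis anterior, a hind-limb muscle rich in fast fibres. A barcode was a member when at least 200 genes were detected, at most 10% of its UMIs were mitochondrial and 8 fibre genes together held at least 10% of its UMIs (Ckm, Acta1, Atp2a1, Tnnc2, Tnnt3, Pvalb, Mylpf and Eno3). In addition, at least 5 UMIs had to fall on the myosin heavy chain genes Myh1, Myh2, Myh4 and Myh7, with at least 80% of these on Myh4. There were 704 members among 50460 retained barcodes and 56922 deposited ones. The choice used measured values, so the 12 rule genes and the mitochondrially encoded genes are described below without a test.

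The series holds 5 libraries from female C57BL/6 mice aged 26 months. Frail mice (2 libraries) had a 31-item frailty index of at least 0.18, and control mice (3 libraries) had an index below 0.18. All were untreated as far as the labels say, of the same strain, sex and age, and the series text counts them as separate mice. On the preparation the labels conflict, with enzymatic digestion to whole cells in the series text and sorted nuclei after lysis in the sample protocol, and this was not settled here.

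A skeletal muscle fibre is a single long cell with many nuclei, and its speed follows the heavy chain it makes. In the mouse, Myh4 encodes the IIb chain, Myh1 the IIx chain, Myh2 the IIa chain and Myh7 the slow chain. IIb fibres work mainly on glycogen and glycolysis, hold few mitochondria and little myoglobin, and use parvalbumin and the calcium pump SERCA1 for fast relaxation. An intact fibre is too large for a droplet, so such barcodes hold pieces of fibres or their nuclei and free RNA.

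The fast heavy chain genes lie side by side on chromosome 11, and their upstream sequences are shown because the heavy chain defines the members. RefSeq (GRCm38.p6) gives the 250 bases before each start on the plus strand, at chr11:67237562-67237811 for Myh4, chr11:67199852-67200101 for Myh1 and chr11:67170777-67171026 for Myh2. Capitals mark a shared run of 20 letters and each TATAAA on either strand.
Myh4: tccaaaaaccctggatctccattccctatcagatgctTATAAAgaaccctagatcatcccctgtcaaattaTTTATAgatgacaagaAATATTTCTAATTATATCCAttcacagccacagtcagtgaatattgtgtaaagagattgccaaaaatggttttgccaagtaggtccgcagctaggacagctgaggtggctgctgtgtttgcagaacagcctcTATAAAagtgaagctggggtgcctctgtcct
Myh1: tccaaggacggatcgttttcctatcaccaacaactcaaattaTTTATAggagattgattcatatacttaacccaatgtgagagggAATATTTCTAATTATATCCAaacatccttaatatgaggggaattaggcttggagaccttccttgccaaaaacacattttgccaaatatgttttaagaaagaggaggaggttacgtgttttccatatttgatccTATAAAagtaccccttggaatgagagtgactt
Myh2: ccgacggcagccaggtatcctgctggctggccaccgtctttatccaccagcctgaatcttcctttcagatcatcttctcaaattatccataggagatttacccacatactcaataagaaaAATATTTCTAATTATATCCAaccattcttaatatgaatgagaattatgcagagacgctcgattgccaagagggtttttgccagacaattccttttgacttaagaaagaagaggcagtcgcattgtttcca
The shared run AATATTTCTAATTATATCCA began 163 bases before the start of Myh4, 165 before Myh1 and 130 before Myh2, and 3 of the 32841 upstream windows of the table held it, which were these. TATAAA was found 3 times in the Myh4 window, the nearest beginning 31 bases before the start, and 2 times in the Myh1 window, the nearest at 32 bases. It was not found in the Myh2 window, and 12.4% of all windows held it. The E-box CANNTG, the core of sites for myogenic bHLH factors, matched 2 times upstream of Myh4 (CAGATG at 221 bases and CAGCTG at 67) and not upstream of Myh1 or Myh2, with 66.2% of all windows holding a match. These matches describe letters only.

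Members were few in the frail libraries. There were 0 of 9351 retained barcodes in frail 1 and 16 of 10517 in frail 2, against 194 of 8650, 425 of 9854 and 69 of 12088 in control 1 to 3. As shares, frail 1 had 0%, for which a count of 0 allows up to 0.0321% (3 counts), and frail 2 had 0.152% (95% Wilson interval 0.0937 to 0.247). Control 1 to 3 had 2.24% (1.95 to 2.58), 4.31% (3.93 to 4.73) and 0.571% (0.451 to 0.722). Both frail libraries lay below all 3 controls. On the log2 scale, with 0.5 added to each number of members, the frail minus control difference was -5.94, with an exact two-sided permutation p of 0.1, which is the smallest that 2 against 3 libraries can give. Without frail 1 the difference was -3.50 and without frail 2 it was -8.37, so the size, but not the direction, rests on the library with 0 members. Intervals and floors cover counting error only.

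The other myofibre barcodes were rare in the same libraries. The IIx/IIa class, with at least 80% of heavy chain UMIs on Myh1 and Myh2, held 3 and 2 barcodes in frail 1 and 2, against 34, 158 and 44 in control 1 to 3. Barcodes of mixed heavy chain numbered 0 and 4 in the frail libraries and 44, 65 and 27 in the controls. Barcodes rich in fibre genes but with under 5 heavy chain UMIs, which cannot be typed, numbered 8 and 54 in the frail libraries and 72, 203 and 160 in the controls. IIb members were 0 of 3 myofibre barcodes in frail 1 and 16 of 22 (72.7%) in frail 2, against 71.3%, 65.6% and 49.3% in control 1 to 3. The mean difference in this mix was -25.7 percentage points (exact two-sided permutation p = 0.7), and it was 10.7 points without frail 1. So the mix of types was not shown to differ, whereas the number of myofibre barcodes of every class was lower in both frail libraries.

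Fibre RNA outside the myofibre barcodes moved the same way. In the remaining barcodes, Acta1, the skeletal actin, was at 18.6 (frail 1) and 53.7 (frail 2) plain CPM, against 233, 642 and 215 in control 1 to 3. Plain CPM is a gene's UMI count scaled to the total UMIs of that set of barcodes, with no further normalisation factor. Ckm, the muscle creatine kinase, was at 7.81 and 24.8 in the frail libraries and at 121, 320 and 101 in the controls. Both descriptions of the preparation include a strainer, and the sample protocol adds a sort of stained nuclei, steps that can set such shares. Their part in the frail difference was not tested.

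**Figure D1:**
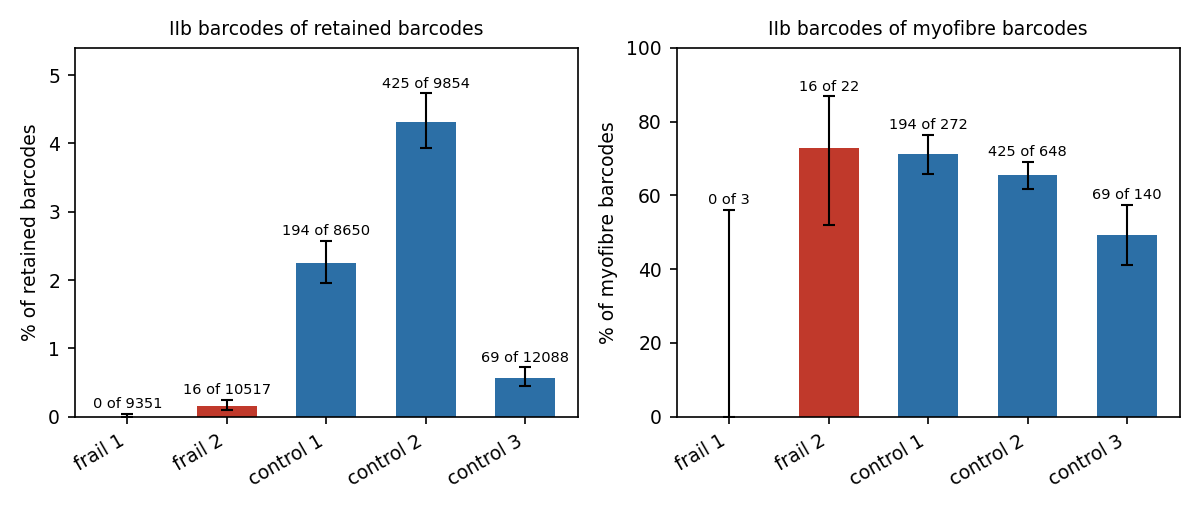
Share of IIb members among retained barcodes (left, %) and among all myofibre barcodes (right, %), 1 bar per library with frail in red and control in blue, bars starting at 0 and error bars for the 95% Wilson interval. The frail libraries stand at 0% and 0.152% on the left, below the controls at 0.571% to 4.31%, while frail 2 at 72.7% on the right lies near the controls at 49.3% to 71.3%.

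All 5 markers were found in the members of 4 of the 5 libraries, the fifth having no member. Since all 5 markers are rule genes, their levels are given as a description. Myh4 was at 2350 plain CPM in the members of frail 2, against 6733, 6945 and 3547 in control 1 to 3. Pvalb, parvalbumin, was at 3443 in frail 2, against 6594, 6352 and 3409 in the controls. Ckm stood at 34683 and Acta1 at 67485 in frail 2, against 29473, 27734 and 27424 and against 56480, 56228 and 51837 in the controls. Atp2a1, which encodes SERCA1, was at 10710 in frail 2 and at 7965, 6487 and 9219 in the controls. In the IIx/IIa barcodes of control 1 to 3, Acta1 was at 54450, 61099 and 53384 and Ckm at 20505, 20879 and 25477. Atp2a1 was at 5239, 6052 and 7691 there. Acta1, Ckm and Atp2a1 thus set the classes little apart. Pvalb was at 1699, 1414 and 1464 in IIx/IIa, and Myh4, which the rule divides, at 110, 115 and 140. Myh7 had no UMI in any member and Myh2 had 2 UMIs in all, both in control 2, so no slow and almost no IIa heavy chain was detected. Myh1 was at 50.8 in frail 2 and at 214, 89.3 and 116 in the controls.

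Myh4 was the single heavy chain with a UMI in 573 of the 704 members, a share of 81.3% in frail 2 against 79.9%, 85.9% and 58.0% in control 1, 2 and 3. The rule and the depth set much of this share, since a member had a median of 11 heavy chain UMIs in frail 2 and of 19, 18 and 11 in the controls. Near the limits of the rule, 23 members had a Myh4 share of 80% to under 85%, and 23 barcodes just outside had 75% to under 80%. On the fibre genes, 11 members had 10% to under 11% and 10 barcodes outside had 9% to under 10%. On the heavy chain sum, 48 members had 5 UMIs and 40 barcodes with 4 UMIs would otherwise have entered. Few barcodes therefore sat at the share limits, and the limit on heavy chain UMIs was the nearest to many.

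By their medians, members were shallower than other barcodes and poor in nuclear RNA. Their median total was 4475.5 UMIs in frail 2 and 4168.5, 2650 and 2498 in control 1 to 3, against 5379 in the remaining barcodes of frail 2 and 7161.5, 6434 and 6816 in those of the controls. Nuclear-retained long noncoding RNAs, a list of 6 with Malat1, took a median of 0.0409% of a member's UMIs in frail 2 and 0.0218%, 0.0392% and 0.115% in the controls. In the remaining barcodes of frail 2 and control 1 to 3 the medians were 2.68%, 1.88%, 1.80% and 3.14%. Over the pooled UMIs of members the list took more, 0.445% in frail 2 and 0.198%, 0.137% and 0.631% in the controls. Some members thus held far more of this RNA than the median. The pooled shares of the remaining barcodes were 2.95% in frail 2 and 2.10%, 2.10% and 3.32% in the controls. The median mitochondrial share of members was 1.38% in frail 2 and 2.22%, 2.08% and 2.04% in the controls, below the 4.05%, 3.18%, 3.11% and 3.39% of the remaining barcodes. Both median shares were thus lower in members than in the remaining barcodes in each of the 4 libraries that held members. Across libraries 348 barcode sequences were shared among 56571 distinct ones, 8 members had such a sequence, and none was a member in both libraries.

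RNA of other cell types was present in the members, at levels that differed between libraries. In control members the summed fibro-adipogenic markers, led by the collagen-binding Dcn, came to 881, 1170 and 3779 plain CPM in control 1 to 3, against 18480, 19663 and 23718 in the remaining barcodes, and to 597 in the members of frail 2. The mural list, for pericytes and smooth muscle, came to 25.4 in frail 2 and to 212, 232 and 1097 in the controls. Mbp, a Schwann cell marker, was at 114 in frail 2, with all 9 UMIs in 1 member, and at 3.53, 5.95 and 5.53 in the controls. The erythroid list came to 140 in frail 2 and to 1277, 676 and 138 in the controls, and in control 1 only 4 of 194 members had 3 or more of its UMIs. Epithelial markers had 0 UMIs in frail 2 and came to 4.41, 4.12 and 693 in the controls. Adipocyte markers had 0 UMIs in the members of frail 2, control 1 and control 3.

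Outside the rule genes, genes of the thin filament and of glycolysis were among the 15 most abundant nuclear-encoded transcripts of the control members. The 3′ chemistry counts 1 tag per RNA molecule, so levels were set side by side with no scaling by length. Tpm1, the fast tropomyosin, averaged 32531 ± 5302 plain CPM (SD, n = 3 control libraries). Myl1, the essential light chain of fast myosin, averaged 24461 ± 2028, and Tnni2, the fast inhibitory troponin, 19159 ± 724. Of the glycolytic enzymes, Aldoa (aldolase) averaged 22703 ± 1995, Gapdh 13117 ± 2302 and the muscle phosphoglycerate mutase Pgam2 4030 ± 669. Tpm2, the second tropomyosin, was at 13500 ± 4815. Slc25a4, the ADP/ATP carrier of muscle mitochondria, was at 7216 ± 1640, the fast-fibre actinin Actn3 at 4458 ± 982, the titin cap Tcap at 4348 ± 334 and the muscle cytochrome oxidase subunit Cox6a2 at 3591 ± 806. Cryab, a small heat shock protein, was uneven, at 6430 in control 2, 2153 in control 1 and 2044 in control 3.

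The members were next set against IIx/IIa fibres of the same control libraries. UMI sums per library and class were compared in control 1 to 3 with edgeR (quasi-likelihood F test, library as a block, adjusted p under 0.05). Of 4656 genes tested, 312 passed (6.7%), 103 of them higher in IIb (2.21%) and 209 lower (4.49%), and the median log2 fold change of all genes was 0.01. Plain CPM differed in the same direction in all 3 libraries for 37.5% of the genes tested. The share called rests on the design: without the library block 23 genes passed, and without control 1, 2 or 3 the count was 216, 178 or 388. Some markers of other cells were also higher in IIb. These were 2 of 6 fibro-adipogenic genes tested (Dcn and Gsn), 2 of 3 mural genes (Rgs5 and Myh11) and 1 of 2 tenocyte genes (Fmod). Of the 6 fibro-adipogenic genes 3 were positive and 3 negative, with a median of 0.04. None of 6 endothelial, 4 immune and 4 erythroid genes tested passed. The mural list came to 212, 232 and 1097 plain CPM in IIb against 99.1, 127 and 190 in IIx/IIa. With all myofibre barcodes that had at least 1% of UMIs on other-type markers left out, 257 genes passed.

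An antisense gene beside Myh4 was among the largest rises. Myhas, a long antisense RNA between Myh1 and Myh4 (chromosome 11, 67211256 to 67237573, minus strand, GENCODE vM21 on GRCm38), was at 66.1, 47.6 and 27.6 plain CPM in IIb members of control 1 to 3, against 11.4, 5.73 and 4.12 in IIx/IIa. It was higher in IIb in all 3 libraries, by 2.85 on the log2 scale (SE 0.426, edgeR adjusted p = 1.73e-05), and its values in the classes did not overlap. Its annotated start lies 239 bases from the RefSeq start of Myh4, inside the Myh4 window printed above, and its body overlaps Myh1 by 13320 bases on the opposite strand. Whether reads were counted by strand is not given in the sources used here, and Myh1 itself was lower in the members by the rule.

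Further named rises in IIb included Actc1, Prkag3, Deptor and Smox. Actc1, the cardiac actin that is also made in developing muscle, was at 77.6, 127 and 113 plain CPM in IIb, against 26.7, 4.77 and 24.7 in IIx/IIa (log2 fold change 3.04, SE 0.502, edgeR adjusted p = 0.0032). Its UMIs came from 16.5%, 22.6% and 23.2% of the members of control 1 to 3. At this level and depth a member can hold the RNA and show no UMI, so these shares do not say how many members carried it. Prkag3, the muscle gamma subunit of the AMP-activated kinase, was at 51.1, 50.8 and 8.29 in IIb, against 7.62, 15.3 and 4.12 in IIx/IIa (log2 1.91, SE 0.403, adjusted p = 0.0018). The level of control 3 was low in both classes, with 3 UMIs in IIb and 1 in IIx/IIa, too few to give a direction there. In control 1 and 2 IIb was higher, with 2 and 16 UMIs in IIx/IIa. Deptor, an inhibitor of the mTOR kinase, was at 33.5, 39.8 and 27.6 in IIb against 3.81, 11.5 and 12.4 (log2 1.86, adjusted p = 0.00366), and Smox, spermine oxidase, at 39.7, 36.2 and 27.6 against 7.62, 7.64 and 16.5 (log2 1.93, adjusted p = 0.0032). The IIb and IIx/IIa values of Deptor and of Smox did not overlap.

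Of the 12 rises named by rule, the others were Tmem100, Mical2, Fmod, Zfp467, Phlda1, Cavin3 and Wnt4. Wnt4, a secreted signalling protein, was at 42.3, 43.5 and 47.0 plain CPM in IIb against 3.81, 18.1 and 8.25 in IIx/IIa (log2 1.77, SE 0.389, edgeR adjusted p = 0.00256). The zinc finger gene Zfp467 was at 52.9, 44.4 and 55.2 against 3.81, 12.4 and 24.7 (log2 1.92, adjusted p = 0.000906). Mical2, an actin-oxidising enzyme, rose by 2.11 (adjusted p = 0.00551) and Tmem100, a membrane protein, by 2.13 (adjusted p = 0.01). Fmod, the tendon proteoglycan fibromodulin, was at 25.6, 50.8 and 163 in IIb against 0, 18.1 and 33.0, but 1 barcode held 20 of the 29 UMIs in control 1 and 1 barcode 43 of the 59 in control 3. Fmod, Cavin3 and Phlda1 did not pass once barcodes with other-type markers were left out (log2 0.76, 1.34 and 1.15, edgeR adjusted p = 0.374, 0.0856 and 0.201, against 1.97, 1.82 and 1.90 with all barcodes). Phlda1 also did not pass with the highest Scrublet scores removed (log2 1.34, adjusted p = 0.0823), nor Cavin3 without control 3 (log2 1.29, adjusted p = 0.145).

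The largest named falls, those of Ldhb and Myoz2, exceeded the largest named rises in size. Ldhb, the heart-type lactate dehydrogenase subunit, was at 11.5, 7.33 and 13.8 plain CPM in IIb members of control 1 to 3, against 221, 445 and 206 in IIx/IIa (log2 fold change -4.96, SE 0.331, edgeR adjusted p = 2.09e-11). Myoz2, a Z-disc protein of slow fibres that binds calcineurin, was at 14.1, 20.6 and 5.53 against 149, 492 and 219 (log2 -4.26, SE 0.295, adjusted p = 4.06e-13). Mb, myoglobin, the oxygen store, was at 1453, 1545 and 2359 against 10435, 8538 and 6437 (log2 -2.26, SE 0.25, adjusted p = 0.00138). For each of these 3 genes the classes were far apart with no overlap. Myoglobin was still detected in most members, with a UMI in 73.2%, 60.0% and 82.6% of the IIb members and in 100%, 99.4% and 100% of the IIx/IIa barcodes of control 1 to 3. After each barcode was thinned to 1000 UMIs, which left out 11 of 194, 38 of 425 and 9 of 69 members and 1 of 34, 10 of 158 and 4 of 44 IIx/IIa barcodes, the shares were 53.0%, 45.2% and 65.0% in IIb against 100%, 99.3% and 100% in IIx/IIa. In the remaining barcodes, where free RNA can supply it, 1.85%, 3.90% and 1.60% had a UMI at that depth.

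Fabp3, Idh2, Coq8a and Actn2 were also among the named falls. Fabp3, which carries fatty acids in the cytosol, was at 332, 553 and 395 plain CPM in IIb against 1871, 2483 and 1015 in IIx/IIa (log2 -2.03, SE 0.183, edgeR adjusted p = 6.04e-09). Idh2, the mitochondrial isocitrate dehydrogenase that makes NADPH, was at 46.7, 33.9 and 55.3 against 251, 443 and 144 (log2 -2.70, adjusted p = 0.00273). Coq8a, a kinase-like protein of coenzyme Q synthesis, was at 165, 175 and 146 against 686, 872 and 404 (log2 -1.98, adjusted p = 3.5e-09). Actn2, the actinin of all fibre types, was at 192, 176 and 365 against 1078, 1033 and 1010 (log2 -2.19, SE 0.194, adjusted p = 3.5e-09). Its fast-fibre paralog Actn3 leaned the other way, at 4679, 5310 and 3384 against 823, 1185 and 2099, without passing the test (log2 1.80, adjusted p = 0.309). Plin5 on lipid droplets, the oxygen sensor Egln3, the ubiquitin ligase adaptor Asb15, the sodium pump subunit Atp1b1 and Slc66a2 fell by 2.04 to 2.21 on the log2 scale, each lower in all 3 libraries. With a fibre gene floor of 20%, which leaves control 2 and 3, Fabp3 was at -0.97, Idh2 at -1.79, Coq8a at -1.80, Actn2 at -2.03 and Mb at -2.02 without passing (adjusted p = 0.0643 to 0.65).

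**Figure D2:**
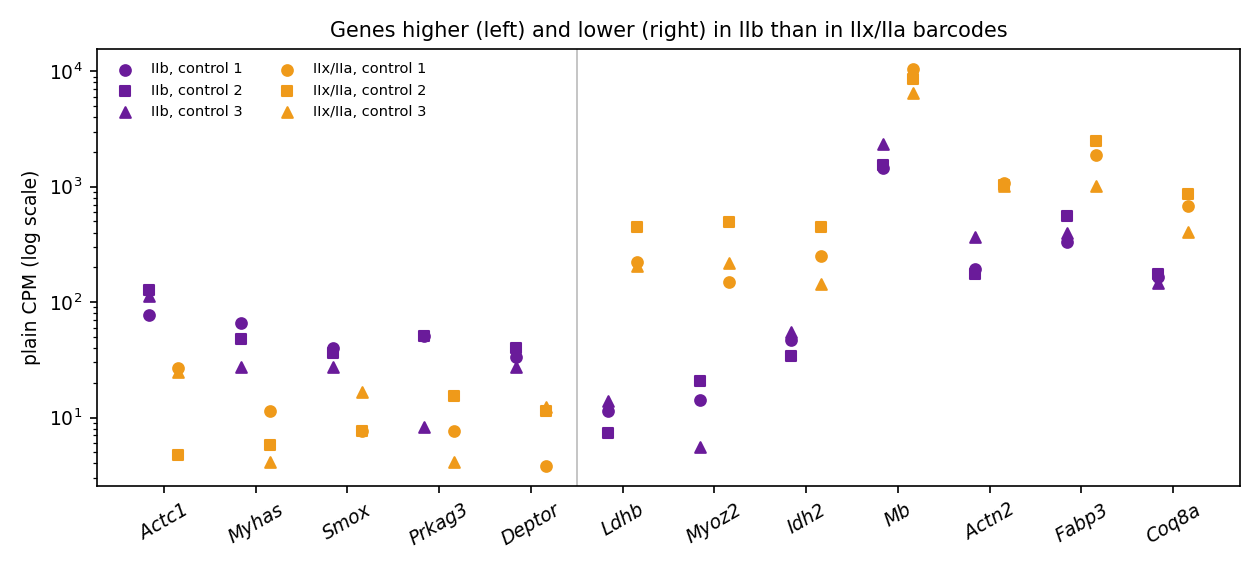
Plain CPM on a log axis of 12 genes in IIb (purple) and IIx/IIa (orange) barcodes, 1 symbol per control library. The IIb points of Actc1, Myhas, Smox and Deptor lie above all IIx/IIa points, those of Prkag3 overlap between libraries (8.29 in control 3 against up to 15.3), and those of the 7 genes on the right lie below all IIx/IIa points.

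The lists of energy metabolism were read by count and median beside the 2.21% and 4.49% of all genes that passed. Of 45 nuclear-encoded subunits of the respiratory chain and ATP synthase, 41 were lower and none higher, with a median log2 fold change of -0.68 and no positive value. Cox6a2 was at 3692, 2740 and 4343 plain CPM in IIb against 7338, 6509 and 5312 in IIx/IIa (log2 -0.85, edgeR adjusted p = 0.000633), and Uqcrc2, a complex III core protein, at 190, 203 and 282 against 442, 395 and 408 (log2 -0.91, adjusted p = 0.0021). Of 23 genes of the TCA cycle and fatty acid oxidation, 16 were lower and none higher, with a median of -0.98, among them Hadha of the trifunctional protein (60.0, 63.2 and 69.1 against 164, 197 and 120) and the malate dehydrogenase Mdh1 (349, 285 and 544 against 1063, 859 and 759). The mitochondrially encoded genes are given as a description, since the rule capped mitochondrial UMIs at 10% in both classes. Of 11 with a value, 10 were positive, with a median of 0.20. The count of lower respiratory subunits was 10, 10 and 42 without control 1, 2 and 3 and 0 without the library block or with a fibre gene floor of 20%, which leaves 2 libraries, while the median lay between -0.79 and -0.31 in all of these fits. The count of lower TCA cycle and fatty acid genes was 12, 8 and 15 without control 1, 2 and 3.

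Glycolysis and glycogen genes changed in both directions. Of 22 tested, 6 were higher in IIb, 3 lower and 13 did not pass, with a median of 0.22. Pygm, muscle glycogen phosphorylase, was at 1235, 1247 and 1246 plain CPM in IIb against 655, 737 and 1085 in IIx/IIa (log2 0.63, edgeR adjusted p = 0.0125). Fbp2, muscle fructose bisphosphatase, was at 67.0, 51.7 and 38.7 against 11.4, 22.0 and 16.5 (log2 1.52, adjusted p = 0.00332), and Gpd1, glycerol phosphate dehydrogenase, at 105, 82.4 and 124 against 41.9, 37.2 and 45.4 (log2 1.28, adjusted p = 0.0019). Phka1, Pgm1 and Ldha also rose, by 1.26, 0.84 and 0.58. Ldha, the muscle-type subunit, and Ldhb thus moved in opposite directions. The lower genes beside Ldhb were glycogen synthase Gys1 (97.9, 76.9 and 119 against 297, 182 and 181) and hexokinase Hk2 (86.4, 142 and 93.9 against 198, 157 and 219).

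Of 20 genes of the contractile apparatus, 6 passed. Mybpc2 and Tpm1 were higher and Actn2, Tcap, Myot and Nrap lower, with a median of 0.11. Mybpc2, the fast myosin-binding protein C, was at 1685, 1592 and 1439 plain CPM in IIb against 507, 576 and 507 in IIx/IIa (log2 1.57, SE 0.161, edgeR adjusted p = 6.04e-09). Titin, nebulin and the fast light chain and troponin genes Myl1 and Tnni2 did not pass, each within 0.18 of zero on the log2 scale. Of 20 genes of calcium handling, Casq1, the calcium buffer of the fast sarcoplasmic reticulum, passed (514, 332 and 724 against 293, 223 and 553, log2 0.59, adjusted p = 0.0384), while the release channel Ryr1 was at 225, 196 and 155 against 168, 240 and 165. Ribosomal protein genes leaned upward in IIb, with 6 of 23 higher (Rpl4, Rpl10, Rpl13, Rpl32 and Rps18 among them), none lower and a median of 0.32.

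Of 18 regulators of fibre type tested, 2 were lower in IIb and none higher, beside 4.49% and 2.21% of all genes. Of 9 genes of atrophy and growth, 1 was lower and none higher. Ppargc1a, the coactivator PGC-1 alpha of mitochondrial genes, was at 15.9, 116 and 27.6 plain CPM in IIb against 57.2, 402 and 24.7 in IIx/IIa (log2 -1.50, edgeR adjusted p = 0.00109). It was lower in IIb in control 1 and 2 and slightly higher in control 3. Vgll2, a cofactor of TEAD factors in muscle, was at 103, 101 and 60.8 against 240, 272 and 124 (log2 -1.26, adjusted p = 0.000325). No other of the 18 regulators tested passed. Sox6, a repressor of slow genes, and Mafa leaned upward without passing (log2 0.93 and 0.95, adjusted p = 0.0668 and 0.086). Among 9 genes of atrophy and growth, Trim63, the ubiquitin ligase MuRF1, was lower in IIb (212, 541 and 93.9 against 480, 748 and 194, log2 -0.85, adjusted p = 0.00407), and Fbxo32, atrogin-1, did not pass (adjusted p = 0.258).

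**Figure D3:**
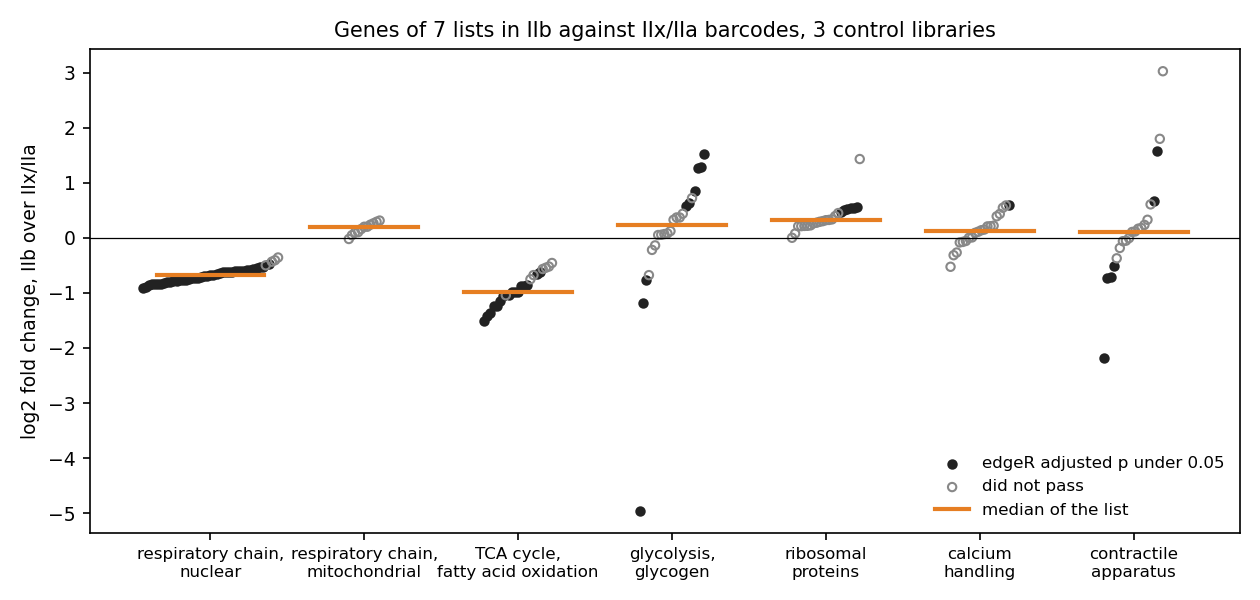
Log2 fold change, IIb over IIx/IIa, of each tested gene of 7 lists in the 3 control libraries, with filled points for edgeR adjusted p under 0.05 and orange lines for list medians. The medians stand at -0.68 for nuclear respiratory genes and -0.98 for the TCA cycle and fatty acid oxidation, and at 0.20 for mitochondrially encoded genes, 0.22 for glycolysis and 0.32 for ribosomal proteins. The mitochondrially encoded genes are a description, since the rule capped the mitochondrial share of every barcode.

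Across myofibre barcodes of every type, levels were then followed along the Myh4 share of heavy chain UMIs, as a description with the controls pooled. The genes were named above for differing between IIb and IIx/IIa in these libraries. The distance between the lowest and highest steps therefore follows from that choice. The shares under 20%, 20 to under 50%, 50 to under 80%, 80 to under 95% and 95% or more held 230, 54, 88, 92 and 596 barcodes. Myhas was at 5.92, 13.5, 30.4, 33.9 and 55.5 plain CPM over these steps. By library it was at 7.71, 22.7, 47.6, 45.1 and 71.2 in control 1, at 5.77, 9.27, 34.3, 36.2 and 49.5 in control 2 and at 4.52, 0, 6.48, 16.5 and 39.0 in control 3. The highest step thus held the highest level in each library, while control 1 and control 3 each had a step lower than the one before. Mb was at 8604, 8321, 5063, 3060 and 1248, and Actn2 at 1045, 580, 594, 450 and 140. Ldhb was at 377 in the lowest step and at 20.3, 25.3, 16.9 and 7.40 above it. Myh2 went with it, at 393 in the lowest step and 13.5 in the next, and the lowest step already held Myh4 at 114 plain CPM. Actc1 stayed at 11.8, 6.77 and 20.2 up to a share of 80% and was at 42.4 and 127 beyond. Among members, those at 80 to under 95% had less Myhas and Actc1 and more Mb and Actn2 than those at 95% or more in each of the 3 controls. By library, 3 of the steps held under 20 barcodes, namely 17 in control 1 and 14 and 15 in control 3, all between 20% and 80%.

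**Figure D4:**
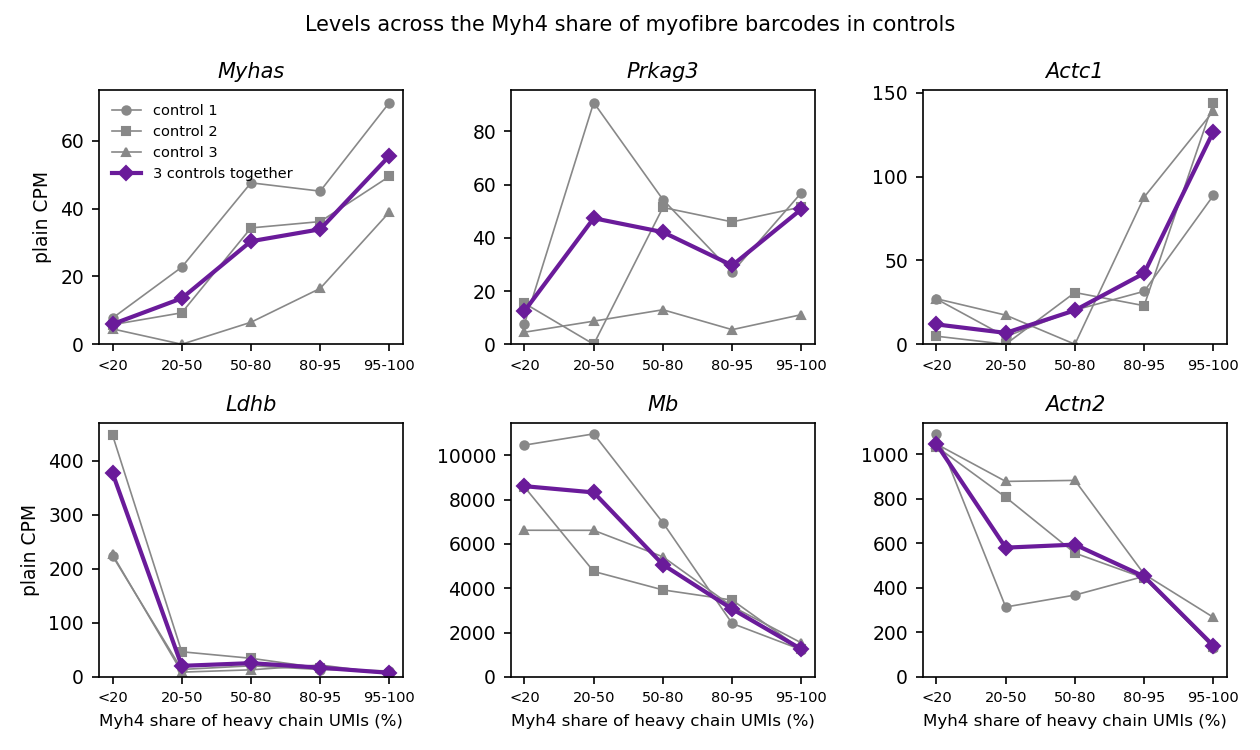
Plain CPM of 6 genes (vertical axes, linear from 0) against the Myh4 share of heavy chain UMIs (%) of control myofibre barcodes, with a grey line per library and a purple line for the 3 controls together. Myhas and Actc1 reach 55.5 and 127 at 95% or more, Mb and Actn2 decline to 1248 and 140, Ldhb drops from 377 to 20.3 at the second step, and Prkag3 shows no steady course.

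Control 2 held a subset of members with Myog, which encodes myogenin, a myogenic factor that is also raised in denervated muscle. A Myog UMI was found in 49 of its 425 members (11.5%), against 6 of 194 in control 1, 1 of 69 in control 3 and 0 of 16 in frail 2, and in 0.544% of the remaining barcodes of control 2. In the IIx/IIa barcodes of control 2 the share was 6.96% of 158, so Myog was not particular to IIb members. At 1000 UMIs per barcode the share was 5.68% of 387 members in control 2 and 0.676% of 148 IIx/IIa barcodes. The split was chosen after the values were seen and is described without a test. The 49 had a median of 6191 UMIs and the other 376 had 2399, so depth moves with the split, and plain CPM removes depth but not the chance of finding a Myog UMI.

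The genes given next were chosen after their values were seen. Gadd45a, a growth arrest gene induced on denervation, was at 1183 plain CPM in the Myog members and 83.6 in the others, with a UMI in 87.8% and 18.4%. Runx1, a transcription factor induced on denervation, was at 202 and 11. The acetylcholine receptor genes Chrna1 and Chrnd were at 55.1 and 57.0 in the Myog members and at 12.8 and 11 in the others, whereas the fetal subunit Chrng had 0 UMIs in the 49. Ankrd1, a titin-associated stretch protein, was at 4061 and 654, the small heat shock proteins Hspb8 and Cryab at 3462 and 12644 against 633 and 4368, and Sln, sarcolipin, at 573 and 78.7. Myf6, the myogenic factor of mature fibres, was at 1213 and 264, and Cdkn1a, the cell cycle inhibitor p21, at 612 and 132. Mybph, a myosin-binding protein, was at 1062 and 291, and Trim63 at 814 and 451. Fbxo32, the other atrophy ligase, was at 191 in the Myog members and 218 in the others, and the synaptic genes Musk and Chrne had 2 UMIs and 1 UMI in the 49. The 6 Myog members of control 1 shared this only in part. They had 0 UMIs of Runx1, Chrna1 and Chrnd, with Gadd45a at 35.7 against 59.7 in the other members of control 1. Sln, Cdkn1a and Mybph were not higher either. Ankrd1 was at 750 against 152, with UMIs in 2 of the 6, Cryab at 3855 against 2110 and Myf6 at 214 against 136.5. Hspb8 and Trim63 were slightly higher, at 250 against 211 and at 250 against 212.

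By the rule these members are IIb, and their heavy chain level was close to that of the others. Myh4 was at 6240 plain CPM in the Myog members and 7179 in the others, and Pvalb at 6306 and 6368. Energy genes were at lower levels, with Eno3, muscle enolase, at 1055 and 6195, Ckm at 17423 and 31156, Gapdh at 8144 and 14885 and Aldoa at 14757 and 25501. Actc1 was at 12.9 and 165, thus lower with Myog. Dcn, the stromal marker, was at 285 and 622 and Malat1 at 592 and 1533. The level of Gadd45a over all members was uneven between libraries, at 76.2 plain CPM in frail 2, whereas control 1 to 3 were at 59.1, 358 and 74.6.

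**Figure D5:**
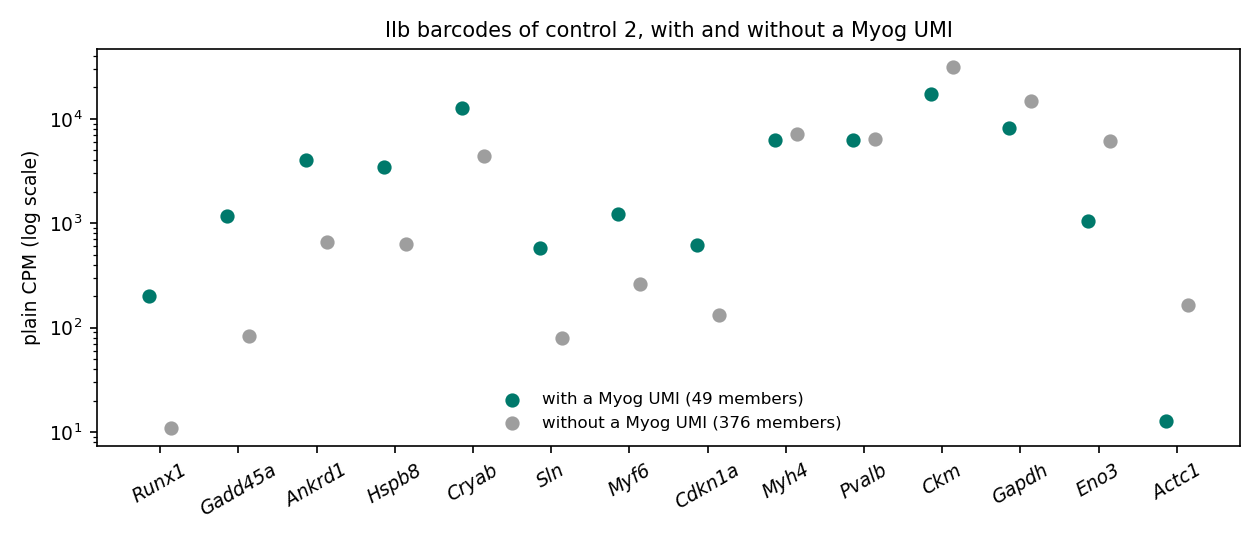
Plain CPM on a log axis of 14 genes in the IIb members of control 2 with a Myog UMI (49, green) and without (376, grey). Runx1, Gadd45a, Ankrd1, Hspb8, Cryab, Sln, Myf6 and Cdkn1a lie higher with Myog, Myh4 and Pvalb lie close together, and Ckm, Gapdh, Eno3 and Actc1 lie lower.

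Between frailty groups, the gene comparison within IIb members rested on the 16 members of frail 2, with 78714 UMIs, against 1134216, 2183900 and 361980 UMIs in control 1 to 3. The edgeR fit assumes that the lone frail library varies like the controls. Of 6286 genes tested, 7 passed (0.111%), 6 higher in frail 2 (0.0955%) and 1 lower (0.0159%). The median log2 fold change of all genes was -0.38, and frail 2 lay outside the range of the 3 controls for 72.6% of genes. Among the rises, Pmp22, a membrane protein of peripheral myelin, was at 305 plain CPM in frail 2 against 21.2, 17.9 and 55.3 in the controls (log2 3.42, SE 0.552, edgeR adjusted p = 0.0135), and all 24 of its UMIs in frail 2 were in 1 member. Stmn1 had all 10 and Mbp all 9 UMIs in 1 member, both being named after their values were seen. Without the members that hold an Mbp UMI, 1 of 16 in frail 2, no gene passed in edgeR and 445 had an unadjusted p under 0.05, against 397 in the full fit. Without control 1, 2 or 3 the count was 12, 7 or 31.

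Depp1, Retreg1 and Nmrk2 also passed. Retreg1, a receptor for autophagy of the endoplasmic reticulum, was at 648 plain CPM in frail 2 against 107, 82.9 and 96.7 in control 1 to 3 (log2 2.72, SE 0.438, edgeR adjusted p = 0.00665). It was found in 12 of 16 members of frail 2 and in 49 of 194, 102 of 425 and 19 of 69 in the controls, so the rise was spread over the members. It did not pass in 2 of 12 alternatives, at 2.66 without the members that hold an Mbp UMI (adjusted p = 0.0653) and at 2.63 with a heavy chain share of 90% (adjusted p = 0.0614). Nmrk2, a muscle kinase of NAD synthesis, had 1 UMI in frail 2 (12.7 plain CPM) against 207, 341 and 301 in the controls (log2 -4.49, SE 0.908, adjusted p = 0.0449), and did not pass in 8 of 12 alternatives, among them DESeq2 (adjusted p = 0.551) and the fit without control 2 (adjusted p = 0.0591). Depp1, a target of FoxO factors, was at 203 against 15, 28.4 and 13.8 (log2 3.26, adjusted p = 0.0135), with 13 of its 16 UMIs in 1 member, and did not pass in 4 of 12 alternatives, at log2 3.14 to 3.27 (DESeq2, DESeq2 size factors in edgeR, a heavy chain share of 90%, and without the members that hold an Mbp UMI, adjusted p = 0.0567 to 0.242). Ppp1r3c, a glycogen-targeting phosphatase subunit named after its values were seen, had 1 UMI in frail 2 against 229, 258 and 204 plain CPM and an adjusted p of 0.0751.

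Between frail 2 and the controls, the lists of muscle genes are read by sign and median. Few genes of any kind passed in this fit, so a list without a call says nothing about that list. Of the 45 nuclear respiratory genes, 26 were positive with a median of 0.10, and of the 22 glycolysis and glycogen genes 16 were positive with a median of 0.41, none passing. The 23 ribosomal protein genes were all negative with a median of -0.53, beside the -0.38 of all genes, and none passed. Fbxo32 was at 902 plain CPM in frail 2 against 288, 212 and 105 in the controls (edgeR adjusted p = 0.376), Trim63 at 762 against 212, 541 and 93.9 (adjusted p = 0.746) and the pyruvate dehydrogenase kinase Pdk4 at 927 against 189, 273 and 85.6 (adjusted p = 0.466). In each of these 3 genes frail 2 lay above all controls without passing, which is also the position, on either side, of 72.6% of genes. Fbxo32 and Trim63 do not stand for their list. Of 14 genes of atrophy and growth with a value, 6 were positive and 8 negative, with a median of -2.97 beside the -0.38 of all genes. With 0 members in frail 1, none of these values has a second frail library beside it.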

How the data were processed

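Droplet libraries of tibialis anterior from 2 frail and 3 control mice were analysed from the UMI counts per gene and barcode that the authors deposited, as whole-number counts, produced by Cell Ranger 7.0.0 per the file headers. Seurat 4.1.2 and GRCm38 also appear in the submitters' processing notes. For the authors' barcode filter and any counting by strand, the sources used here give no method. The matrices hold 55357 genes, of which 52081 were matched to GENCODE vM21 positions, and upstream sequences were read from RefSeq (GRCm38.p6).

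Members, lists and tests were chosen with earlier results of these data known. Each library is the replicate, so p-values measure the spread between libraries, which the series text attributes to separate mice. No doublet caller entered the choice of members. UMIs were summed per library and class and tested with edgeR 4.0.16 in R 4.3.3 (TMM, filterByExpr, robust quasi-likelihood F test, Benjamini-Hochberg over all genes tested), using libraries with at least 10 barcodes of each class compared, so frail 1 entered no gene test. The scripts were tested on simulated data. Shares were compared by exact two-sided permutation over 10 splits. DESeq2 1.42.0, other limits, Scrublet (scanpy 1.11.5) and left-out libraries were the alternatives. The 2 alternatives of leaving out barcodes rich in other-type markers and barcodes with an Mbp UMI were chosen after seeing the data. Some genes that passed a test are not reported here.

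Named genes were the 12 largest rises and falls between types, and up to 6 each way between frail 2 and the controls. They had to pass the threshold with an average log2 CPM of at least 4 and the same direction in every library (frail 2 on one side of every control), with clone or predicted names and the 12 rule genes left out. Beside these, the most abundant genes, list members and genes said to be chosen after their values were seen are given.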

Additional observations from a re-analysis of the deposited data

How the results depend on the processing

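The frail minus control difference in the log2 share of members was negative in all alternatives run, between -6.75 and -5.29 apart from -3.50 and -8.37 without frail 1 and frail 2, and each p was the smallest its number of libraries allows. The mix of types turned to 10.8 percentage points with a heavy chain sum of 10 UMIs, which leaves frail 1 with no myofibre barcode, and to 10.7 without frail 1, and ranged from -62.1 to 10.7 as each library was left out. With the replicate block (numbers 1 and 2, which the labels do not tie to shared animals or days) the values were -6.75 for the log2 share and -32.1 points for the mix. By its arithmetic this block equals leaving out control 3, which gave the same values, so it is not a separate check. No paired analysis was possible because libraries with members share a single replicate number across groups, for the gene comparison of frail 2 with the controls.

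Between IIb and IIx/IIa, 312 genes passed. The count was 154 with DESeq2, 23 without the library block, 175 with frail 2 added (at least 1 barcode of both classes), 40 with a fibre gene floor of 20% and control 2 and 3 alone, and 178 to 388 with each control left out. No named gene of this comparison reversed. Of the 24 named genes, 15 did not pass without the library block, 10 of the 11 with a value did not pass at the floor of 20% (Actc1 did), and Mb did not pass without members with an Mbp UMI (adjusted p = 0.0626). In the comparison of frail 2 with the controls, 7 genes passed, against 12 with DESeq2, 2 with DESeq2 size factors in edgeR, 18 with no low-count filter, 4 at the floor of 20%, 1 at a heavy chain share of 90%, 3 with the highest Scrublet scores removed, 2 without barcodes rich in other-type markers, 0 without members with an Mbp UMI (445 at an unadjusted p under 0.05), and 7 to 31 with each control left out. Pmp22 turned to -6.24 at the floor of 20%, to -6.94 without barcodes rich in other-type markers, and to -7.16 without members with an Mbp UMI. In each of these fits the 1 member that held its UMIs in frail 2 was gone, so the values are set against 0 UMIs and give no size. Nmrk2 did not pass in 8 of 12 alternatives, Pmp22 passed in 6, and Depp1 and Retreg1 did not pass in 4 and 2. Depth limits the frail side, where 1 UMI in frail 2 is 12.7 plain CPM. The median of all genes in this comparison was -0.38, 0.09 with DESeq2 and -1.70 with no low-count filter.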
